A study of Mus musculus with 2 samples.

Results

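Ccr2 and its monocyte-attracting ligands Ccl2, Ccl7, Ccl8 and Ccl12 were followed through the immune cells of a mouse liver tumour. The 5 genes were taken by symbol from the 32285 genes of each count matrix, and all 5 were found in both libraries. CCR2 is the chemokine receptor that inflammatory monocytes use to leave the bone marrow and to enter inflamed tissue and tumours. Its ligands, the monocyte chemoattractant proteins, are small secreted chemokines made by many activated cells, macrophages and monocytes among them. In liver cancer the axis is known for bringing in monocytes that become tumour macrophages.

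The study compared the tumour immune infiltrate after checkpoint antibody treatment with that after a control antibody. WT C57/BL6 mice carried orthotopic tumours of Hepa1-6, a mouse hepatoma line placed in the liver. They received anti-PD-1, an antibody that blocks the inhibitory receptor of T cells, or an isotype antibody. Live CD45+ cells were enriched with beads, sorted and sequenced as 1 library per antibody with a 10x Genomics 3′ kit, which counts tagged molecules (UMIs) next to the poly-A tail.

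The number of mice behind a library, the antibody dose and the day of harvest are not named in the labels. With 1 library per antibody there is no replicate check, so no test was made. Every interval below covers counting error only, and no difference between the libraries can be told apart from a difference between mice, digestions or library preparations. The anti-PD-1 library held 10149 barcodes and 72148493 UMIs, and the isotype library 9683 barcodes and 67520433 UMIs. After filtering, 9701 anti-PD-1 and 9278 isotype cells remained, with median depths of 6301 and 6113 UMIs. The libraries shared 127 of these barcodes, and 18 of the shared barcodes fell in the same gate on both sides. Ptprc, the gene of CD45, had a UMI in 76.6% of anti-PD-1 and 75.3% of isotype cells.

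Cell types were assigned by gates, each asking for a number of marker genes with a UMI in the cell, and no gate used any of the 5 genes. Mononuclear phagocytes (monocytes, macrophages and cDC2) were the main class, with 5738 anti-PD-1 and 5161 isotype cells. Neutrophils numbered 2209 and 2243, and T and NK cells 660 and 567. Of the tumour, endothelial and fibroblast markers, Clec14a was at 0 in both libraries, Alb had 1 UMI in the anti-PD-1 and 2 in the isotype library, and Col1a1 had 30 and 27. Trf, with 12054 and 13904 UMIs, and Pecam1, with 1058 and 1134, were the exceptions, and both are also expressed by immune cells. Only 2 cells of each library passed the stromal or tumour gate, so ligand made by CD45-negative cells was outside these data.

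The 4 ligand genes lie close together on the forward strand of chromosome 11, within 81.2 kb of mm10. Ccl2 spans chr11:82035571-82037453, Ccl7 chr11:82045712-82047525, Ccl12 chr11:82101845-82103400 and Ccl8 chr11:82115185-82116799, each with 3 exons. Ccr2 lies apart from them on the forward strand at chr9:124101950-124113557. Transcripts of the 5 genes shared no run of 31 bases, and the 1 annotated gene that overlaps a member, the antisense model Gm17268 over Ccl2, had 0 UMIs in both libraries.

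Ccl8 and Ccl12 lie next to each other and were both at their highest level in C1q macrophages, so the 250 bases before their starts are shown side by side. The RefSeq table of promoters (GRCm38.p6, forward strand) matched 3 of the 5 genes, and it held no entry for Ccl2 or Ccl7. The windows are chr11:82114935-82115184 for Ccl8 and chr11:82101595-82101844 for Ccl12, both 5′ to 3′. Capitals mark the TATA box letters TATAAA.
Ccl8: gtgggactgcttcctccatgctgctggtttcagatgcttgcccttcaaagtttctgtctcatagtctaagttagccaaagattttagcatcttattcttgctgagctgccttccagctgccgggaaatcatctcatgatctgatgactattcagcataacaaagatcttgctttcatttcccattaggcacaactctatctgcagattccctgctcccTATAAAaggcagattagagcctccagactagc
Ccl12: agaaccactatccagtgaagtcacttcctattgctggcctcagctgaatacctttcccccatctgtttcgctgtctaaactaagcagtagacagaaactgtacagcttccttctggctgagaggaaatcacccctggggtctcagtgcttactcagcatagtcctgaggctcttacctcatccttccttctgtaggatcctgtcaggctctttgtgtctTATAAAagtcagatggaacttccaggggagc
The TATA box began 32 bases before the start of Ccl8 and 31 bases before that of Ccl12, and 12.4% of 32851 promoter windows held these letters on either strand. None of the other 6 motifs searched on both strands was found in these windows: ISRE (in 2.98% of all windows), GAS (TTCNNNGAA, 7.02%), AP-1 (TGANTCA, 6.75%), the GC box (GGGCGG, 32.7%), C/EBP (TTNNGNAA, 36.8%) and kappaB (7.25%). This says only that those letters are not in these bases.

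Ccl2, the main monocyte attractant of the family, came almost wholly from mononuclear phagocytes. These cells held 94.98% of its UMIs under anti-PD-1 and 94.89% under isotype antibody. Its level, as counts per 1000000 UMIs of the cells concerned (CPM), was high in several gates at once. C1q macrophages had 911 CPM in the anti-PD-1 and 794 CPM in the isotype library. Cells with both C1q genes and monocyte genes had 904 and 994 CPM, and classical monocytes had 902 and 881 CPM. These 3 gates lay close together, and their order differed between the libraries, with C1q macrophages ahead in the anti-PD-1 library and the mixed gate ahead in the isotype library. The non-classical monocyte gate had 182 and 117 CPM, and neutrophils 36.1 and 21.7 CPM. That gate summed to 1288 and 1227 CPM of non-classical markers, against 212 and 203 CPM in classical monocytes. It also held classical monocyte markers, at 7626 and 7728 CPM, against 6581 and 5933 CPM in classical monocytes. The gate is therefore not read as patrolling monocytes alone.

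Ccl7, which binds CCR2 and also other receptors, leaned towards macrophages. C1q macrophages had 475 CPM in the anti-PD-1 and 415 CPM in the isotype library, against 109 and 117 CPM in classical monocytes of the same libraries. The mixed gate stood between them, with 285 and 297 CPM. C1q macrophages held 43.2% and 48.1% of all Ccl7 UMIs, though they were only 13.1% and 13.8% of the cells.

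Ccl12, a CCR2 ligand of the mouse, was graded in the same direction and more steeply. Its level was 240 CPM in anti-PD-1 and 211 CPM in isotype C1q macrophages, 123 and 121 CPM in the mixed gate, and 30.4 and 33.0 CPM in classical monocytes. C1q macrophages held 52.6% and 60.4% of its UMIs.

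Ccl8, a ligand that in the mouse is known for its action through CCR8, was rare. The anti-PD-1 library held 86 UMIs in 32 cells and the isotype library 154 UMIs in 29 cells. C1q macrophages held 62.8% of these UMIs in the anti-PD-1 and 95.5% in the isotype library. Classical monocytes, the non-classical monocyte gate, cDC2, cDC1 and neutrophils of both libraries had 0 Ccl8 UMIs.

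Ccr2, the receptor, had its highest level in classical monocytes, at 371 CPM in the anti-PD-1 and 364 CPM in the isotype library. The mixed gate followed with 368 and 327 CPM, and the intervals of these gates overlapped in the anti-PD-1 but not in the isotype library. The non-classical monocyte gate, which also held classical monocyte markers, had 259 and 255 CPM. C1q macrophages had 253 and 260 CPM, and other mononuclear phagocytes 254 and 235 CPM. In the anti-PD-1 library the intervals of these 3 gates overlapped. In the isotype library C1q macrophages stood above other mononuclear phagocytes, with intervals that did not overlap. Levels were lower in cDC2, at 128 and 134 CPM, in T and NK cells, at 80.5 and 92.9 CPM, and in cDC1, at 75.4 and 64.5 CPM. Neutrophils had 5.34 and 6.16 CPM, and B and plasma cells 4.96 and 6.35 CPM.

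Read as cells rather than molecules, at least 1 Ccr2 UMI was seen in 84.2% of anti-PD-1 and 82.6% of isotype classical monocytes, and in 65.6% and 67.6% of C1q macrophages. In B and plasma cells, which should lack both receptor and ligands, 2.13% of 47 anti-PD-1 and 4.17% of 48 isotype cells held a Ccr2 UMI. After each cell was thinned to 1000 UMIs, the shares were 29.3% and 28.1% of classical monocytes, 19.8% and 21.4% of C1q macrophages, 0.245% and 0.295% of neutrophils, and 0 of B and plasma cells. Median depths were 8615 and 8859 UMIs in classical monocytes and 4414 and 3639.5 UMIs in B and plasma cells. The monocyte and macrophage shares stood far above the B cell background, and the neutrophil shares did not.

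**Figure D1:**
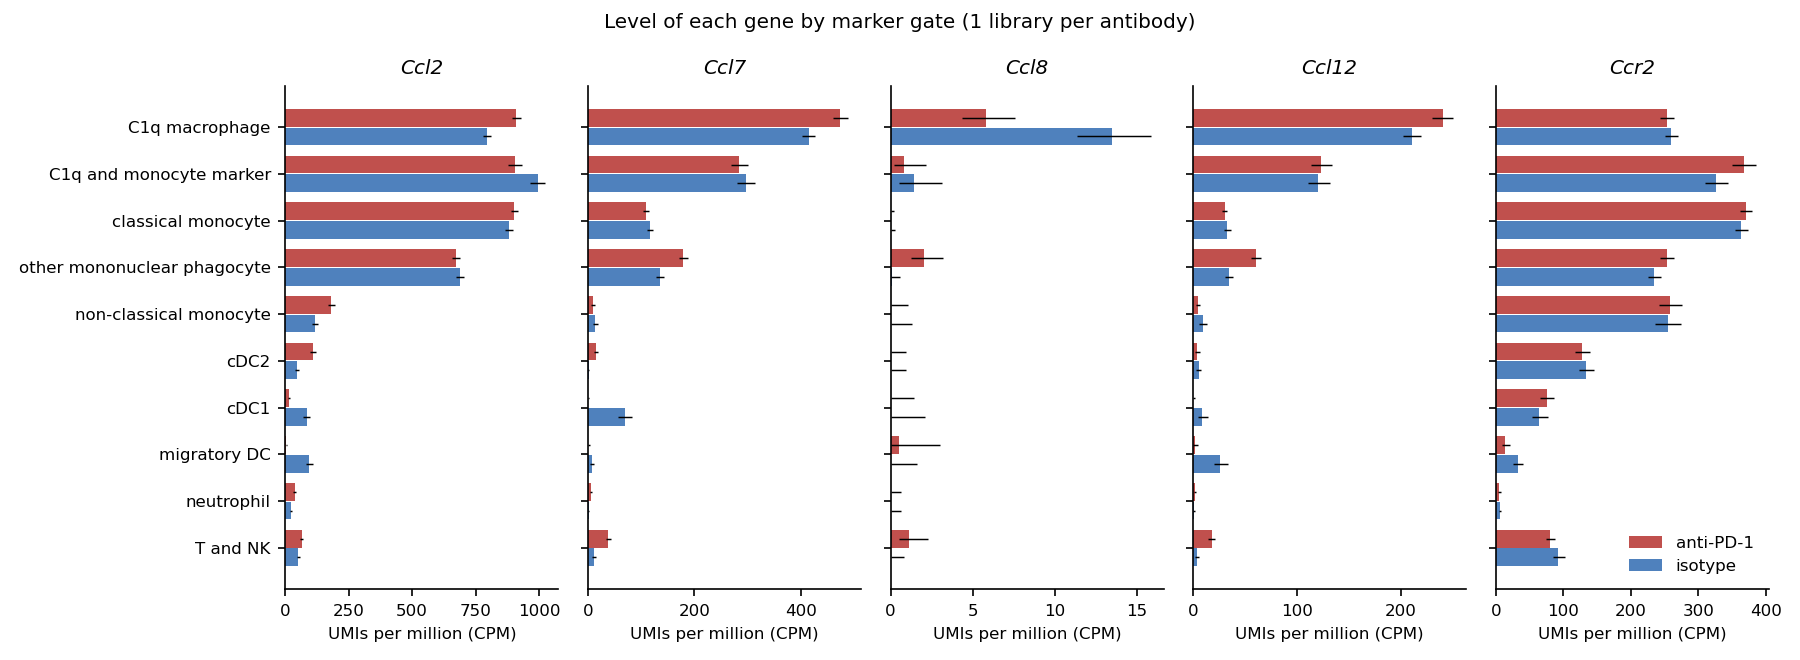
Level of each gene in CPM (x axis, its own linear scale in each panel) in 10 marker gates (y axis), with the anti-PD-1 library above the isotype library and bars of 95% counting error. Ccl7 and Ccl12 are highest in C1q macrophages, at 475 and 240 CPM in the anti-PD-1 library, while Ccr2 is highest in classical monocytes, at 371 CPM in that library.

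The C1q gate asks for 2 of 3 C1q genes, and the same contrast was also read in finer steps. Mononuclear phagocytes outside the cDC2 and non-classical monocyte gates, 5062 anti-PD-1 and 4558 isotype cells, were sorted by how many of the 3 C1q genes had a UMI, from 0 to 3. These genes also set the gate, so the steps are not an independent view of it. Ccl12 went up over these steps, at 38.0, 66.7, 121 and 219 CPM in anti-PD-1 cells and 30.1, 67.4, 83.0 and 207 CPM in isotype cells. Ccl7 did likewise, at 130, 162, 322 and 430 CPM in the anti-PD-1 and 120, 163, 218 and 417 CPM in the isotype library. Ccl2 showed no such slope, lying between 765 and 940 CPM in the anti-PD-1 and between 787 and 943 CPM in the isotype library.

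Sorted instead by how many of the 5 genes that set the classical monocyte gate (Ly6c2, Chil3, Plac8, Vcan and F13a1) had a UMI, Ccr2 climbed over 6 steps. Its level was 199, 243, 281, 331, 359 and 431 CPM in anti-PD-1 cells and 197, 247, 275, 304, 373 and 395 CPM in isotype cells. Ccl2 was not monotonic. Over the same steps it had 1260, 659, 774, 863, 929 and 921 CPM in anti-PD-1 cells. In isotype cells it had 911, 684, 725, 838, 951 and 935 CPM. Its level thus fell from 0 to 1 of these genes and then rose up to 4. Depth differed along these steps, with a median of 4660 UMIs in anti-PD-1 cells with 0 of these genes and 9682 UMIs in those with 5. CPM divides by depth, and any further part of depth was not tested.

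**Figure D2:**
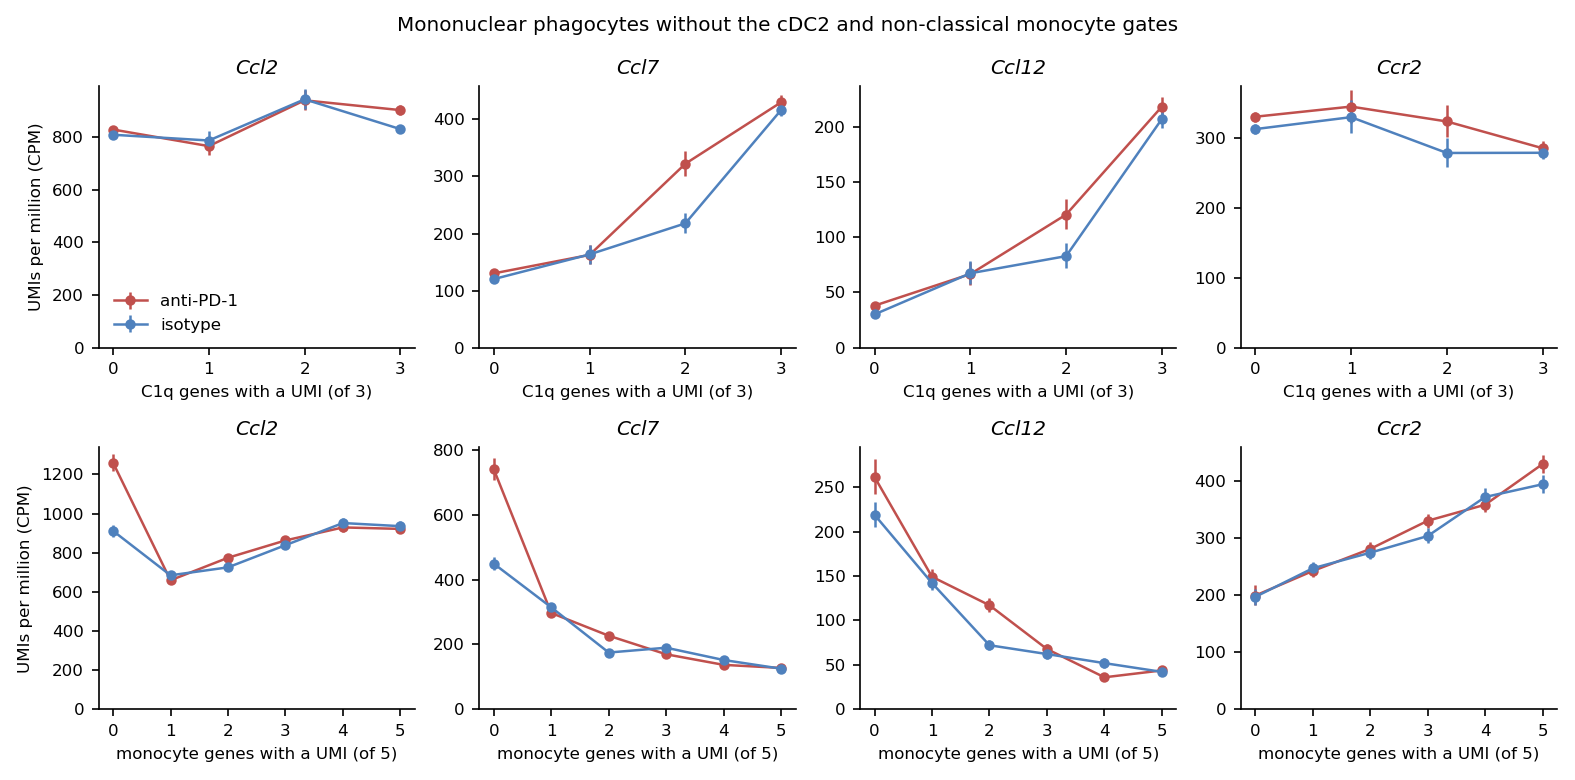
CPM (y axis, from 0) of 4 genes in mononuclear phagocytes outside the cDC2 and non-classical monocyte gates, by the number of C1q genes (upper row) or monocyte genes (lower row) with a UMI, for the anti-PD-1 and the isotype library, with 95% counting error. Ccl7 and Ccl12 climb with C1q genes in both libraries, and Ccr2 climbs with monocyte genes. Ccl2 has no such slope with C1q genes. With monocyte genes it falls from 0 to 1 and then rises up to 4.

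The ligands were concentrated in few cells and the receptor was not. In mononuclear phagocytes of the anti-PD-1 library, the richest 10% of cells held 70.7% of Ccl2 UMIs, 97.6% of Ccl7 UMIs and 95.6% of Ccl12 UMIs. The isotype values were 67.8%, 97.2% and 98.7%. For Ccr2 the richest 10% held 36.2% in each library. The top single cell had 222 Ccl2 UMIs in the anti-PD-1 and 245 in the isotype library, while no cell exceeded 32 and 22 Ccr2 UMIs. At least 50 Ccl2 UMIs were seen in 158 anti-PD-1 and 146 isotype mononuclear phagocytes, and 54.8% of the anti-PD-1 ones had none.

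**Figure D3:**
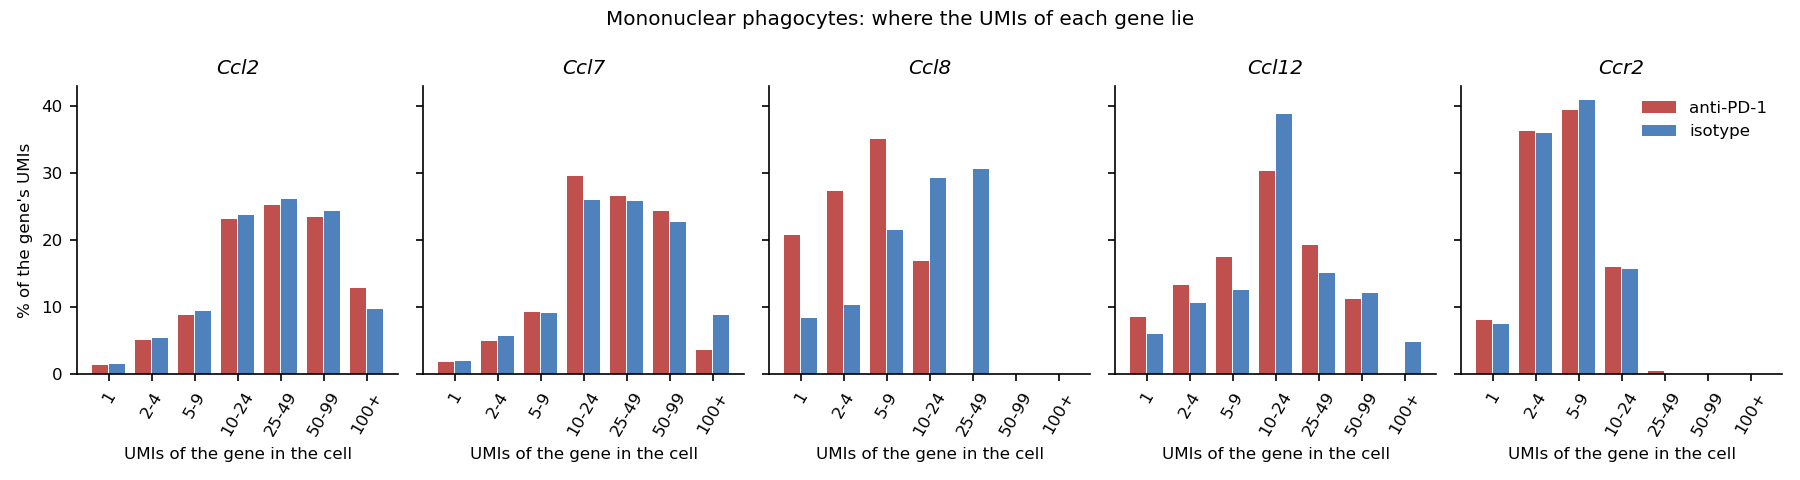
Share of each gene's UMIs in mononuclear phagocytes (y axis, %) that lay in cells with 1, 2-4 and up to 100 or more UMIs of that gene (x axis), anti-PD-1 left of isotype. Ccr2 UMIs lie in cells with under 25 UMIs but for 0.436% in the anti-PD-1 library, whereas 12.8% of anti-PD-1 Ccl2 UMIs lie in cells with 100 or more.

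The 3 abundant ligands came from overlapping cells. Of mononuclear phagocytes with a Ccl7 UMI, 90.8% in the anti-PD-1 and 89.6% in the isotype library also held Ccl2, against 38.1% and 41.4% of those without Ccl7. Pearson r over single cells between log-scaled Ccl2 and Ccl7 was 0.53 over 5738 anti-PD-1 cells and 0.47 over 5161 isotype cells, a description across cells of 1 library each. Between Ccl7 and Ccl12 it was 0.45 and 0.43. A UMI of Ccl12 was found in 42.5% and 36.8% of Ccl7 cells, against 8.40% and 6.63% of the rest.

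Over all mononuclear phagocytes, ligand and receptor showed no such positive link. For Ccl2 and Ccr2, r was 0.02 in the anti-PD-1 and 0.00 in the isotype library. Because Ccr2 was widespread, most ligand still lay in receptor-bearing cells: 78.7% of anti-PD-1 and 76.1% of isotype Ccl2 UMIs were in mononuclear phagocytes with a Ccr2 UMI. In a split chosen after the values were seen, cells without a Ccr2 UMI had more Ccl7, at 293 CPM in the anti-PD-1 and 268 CPM in the isotype library, than cells with one, at 168 and 169 CPM. The same order was seen inside C1q macrophages, at 827 and 770 CPM without Ccr2 and 356 and 309 CPM with it. It was not seen inside classical monocytes, at 102 and 90.1 CPM without and 110 and 121 CPM with it. In C1q macrophages Ccl2 had 1222 and 1211 CPM without Ccr2 and 807 and 670 CPM with it. Ccl12 had 433 and 366 CPM there without it and 176 and 165 CPM with it. In classical monocytes Ccl12 ran the other way, at 18.7 and 9.79 CPM without and 32.0 and 36.7 CPM with it. Ccl2 had no order there that both libraries shared. Over all mononuclear phagocytes, those without Ccr2 were also shallower, with medians of 5930.5 and 6369 UMIs against 8649 and 9240 UMIs.

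Cells with Ccl8 stood apart inside the C1q gate, a comparison also chosen after values were seen. The 20 anti-PD-1 and 24 isotype C1q macrophages with Ccl8 held a Ccr2 UMI in 5 and 9 cells, against 66.2% and 68.2% of the other cells of the gate. Folr2, a folate receptor of resident-type macrophages, had a UMI in 30.0% and 16.7% of them, against 0.802% and 1.91% of the others. Mrc1, the mannose receptor, had one in 70.0% and 62.5%, against 25.5% and 37.0%. Median depth was lower in the Ccl8 cells, at 5416.5 and 6088.5 UMIs, against 6750 and 7989 UMIs. Cbr2, another gene of resident-type macrophages, had one in 2 and 3 of the Ccl8 cells, against 0.802% and 0.874% of the others. Of 5 Kupffer cell genes, Clec4f was at 0 in the Ccl8 cells of both libraries. Vsig4 and Cd5l had a UMI in 2 and Timd4 and Marco in 1 of the 20 anti-PD-1 Ccl8 cells, against 0.241%, 0.401%, 0% and 0.160% of the other anti-PD-1 cells, and all 4 were at 0 in the isotype Ccl8 cells. Lyve1 and Cd163 were at 0 in the Ccl8 cells of both libraries.

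The genes whose levels ran most like each member were read over 20 points, 10 gates in 2 libraries, as Pearson r of log2(CPM + 1) among 4254 candidate genes. The points share libraries and gates, so r is a description. Ccl2 ran closest to Fn1 (r = 0.95), which encodes fibronectin, C3ar1 (0.95), a complement receptor, and Arg1 (0.93), the arginase of suppressive macrophages. Ccl7 ran closest to Arg1 (0.93), Ccl2 and Ccl12 (0.92 each), and Ccl12 to the collagenase gene Mmp13 (0.93), Ccl7 (0.92) and Cxcl14 (0.91). Ccl8 ran closest to C1qb (0.77), C1qc (0.76) and Mmp13 (0.74), and Ccr2 to Srp9 (0.98), Dbi (0.97) and Snx2 (0.97). C1qb and C1qc are also gate markers, so their pattern over these gates was partly set by the gating. Many of the Ccl8 points were at 0, among them classical monocytes, cDC2, cDC1 and neutrophils of both libraries.

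Because Arg1 was among the 3 genes closest to both Ccl2 and Ccl7, mononuclear phagocytes were also split by an Arg1 UMI, after these values were seen. Ccl2 stood at 1239 CPM in anti-PD-1 and 1026 CPM in isotype cells with Arg1, against 452 and 418 CPM in cells without it. Ccl7 stood at 385 and 314 CPM in cells with Arg1, against 82.7 and 75.5 CPM in those without. Among cells with Arg1 the log2 ratio of the libraries was 0.27 for Ccl2 and 0.29 for Ccl7. Among cells without it the ratios were 0.11 and 0.13, all above the 0.06 and 0.03 of mononuclear phagocytes as a whole. Of C1q macrophages and classical monocytes, only the monocytes showed this, and only for Ccl2. In C1q macrophages both ratios were 0.38 with Arg1, but -0.07 for Ccl2 and -0.12 for Ccl7 without it. In classical monocytes they were 0.08 for Ccl2 and -0.28 for Ccl7 with Arg1, and 0.16 and 0.94 without it. Ccr2 differed less by this split, at 281 and 265 CPM with Arg1, against 308 and 300 CPM without. The Ccl2 contrast held inside classical monocytes, at 1490 and 1405 CPM with Arg1, against 660 and 590 CPM without it, and inside C1q macrophages, at 1137 and 872 CPM with Arg1, against 557 and 585 CPM without it.

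A split by Cxcl9, the interferon-induced attractant of T cells, gave the opposite picture for Ccl2. Cells with Cxcl9 had 440 CPM of Ccl2 in the anti-PD-1 and 400 CPM in the isotype library, against 826 and 765 CPM in cells without. Ccl12 did not follow Ccl2 here: it had 136 and 109 CPM in cells with Cxcl9, against 66.9 and 74.4 CPM in cells without. That did not hold inside C1q macrophages, where Ccl12 had 233 and 164 CPM with Cxcl9, against 245 and 225 CPM without, while in classical monocytes it had 87.4 and 103 CPM with Cxcl9, against 23.9 and 28.8 CPM without. Ccl2 was lower with Cxcl9 in both gates and both libraries. Cells with Arg1 were 40.2% of anti-PD-1 and 50.4% of isotype mononuclear phagocytes, and cells with Cxcl9 were 19.4% and 12.8%. Depth differed between the sides of each split, for example 7287 and 7965 UMIs with Arg1 against 8491 and 9030 UMIs without, and its part was not tested.

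**Figure D4:**
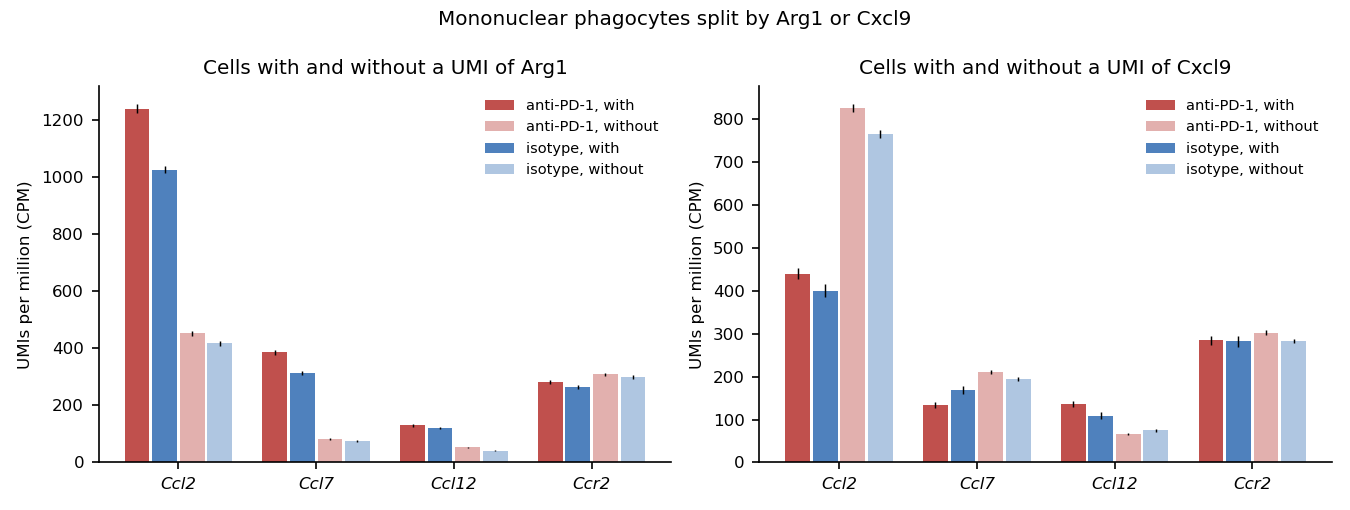
CPM (y axis) of 4 genes in mononuclear phagocytes with (full colour) and without (pale) a UMI of Arg1 (left) or Cxcl9 (right), anti-PD-1 left of isotype in each pair, with 95% counting error. Ccl2 is higher with Arg1, at 1239 CPM in the anti-PD-1 library, and lower with Cxcl9, at 440 CPM in that library.

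Between the libraries, the receptor and its 3 abundant ligands stood at nearly equal levels. Over all kept cells, Ccl2 had 554 CPM in the anti-PD-1 and 540 CPM in the isotype library, a log2 ratio of 0.04 with an interval of 0.02 to 0.06. Ccl7 had 149 and 147 CPM (0.02, -0.02 to 0.06). Ccl12 had 61.9 and 59.4 CPM (0.06, -0.0019 to 0.12), and Ccr2 had 228 and 220 CPM (0.05, 0.02 to 0.09). The median log2 ratio over the 12672 genes with at least 50 UMIs was 0.09, so all 4 lay slightly below the middle of the genes. TMM scaling, a trimmed mean over genes, lowered the ratios by 0.08, and under it these 4 were below 0.

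Ccl8 was the exception, at 1.25 CPM in the anti-PD-1 and 2.40 CPM in the isotype library. Its log2 ratio was -0.93 (-1.33 to -0.54), from 86 and 154 UMIs. A single isotype cell held 47 of these UMIs, and without the top cell of each library the ratio was -0.65. The number of cells with the gene was close, 32 against 29, so the lower level lay in fewer UMIs per such cell.

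Of the 5 genes, 0 were higher and 1, Ccl8, was lower by more than 1.5-fold over all kept cells, where 3.5% of all genes were higher and 1.65% lower by that much. In mononuclear phagocytes the counts were again 0 and 1, against 2.02% and 1.52% of genes. There the log2 ratios were 0.06 for Ccl2, 0.03 for Ccl7, 0.04 for Ccl12, 0.08 for Ccr2 and -1.07 for Ccl8, beside a median of 0.07 over 11396 genes.

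Single gates differed more than the totals. In C1q macrophages, all 3 abundant ligands had a modestly higher CPM in the anti-PD-1 library. The log2 ratios were 0.20 (0.15 to 0.24) for Ccl2, 0.19 (0.13 to 0.25) for Ccl7 and 0.19 (0.10 to 0.27) for Ccl12. For Ccl2 the share of these cells with a UMI ran the other way, at 47.6% of anti-PD-1 and 54.2% of isotype cells. After thinning it was 29.0% and 30.6%, which is -1.56 points (-5.13 to 2.03). Ccr2 in the same cells was level, at -0.04 (-0.12 to 0.04), and Ccl8 was lower, at -1.21 (-1.69 to -0.75). No ligand but Ccl8 passed 1.5-fold there, where 3.78% of genes were higher and 1.32% lower by that much. In other mononuclear phagocytes Ccl7 was at 0.40 (0.29 to 0.51) and Ccl12 at 0.80 (0.60 to 1.00), from 60.3 and 34.7 CPM. Of the 4 members with at least 50 UMIs in that gate, Ccl12 was the 1 past 1.5-fold, where 3.73% of genes were higher and 1.5% lower by that much. With 1 marker more asked of each gate, the ratio was 0.06 for Ccl7 and 0.32 for Ccl12. Ccl8, below that count, had 19 UMIs in 5 anti-PD-1 cells and 1 UMI in 1 isotype cell of the gate, a log2 ratio of 4.27 (1.61 to 9.64), opposite in direction to its ratio in C1q macrophages. It was 1.85 with 1 marker more and 0.50 as the mean of per-cell CPM.

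In classical monocytes Ccl2 stood at 0.03 (-0.00031 to 0.07), Ccl7 at -0.10 (-0.20 to -0.01), Ccl12 at -0.12 (-0.30 to 0.06) and Ccr2 at 0.03 (-0.02 to 0.08), and 0 of these 4 passed 1.5-fold, where 2.11% of genes were higher and 1.23% lower by that much. The small ratios turned in direction with the processing: Ccl2 was at -0.11 after thinning, and Ccl7 was at 0.16 with 1 marker more and at 0.0059 without the top cell of each library. The thinned share with a Ccl2 UMI was 28.5% of anti-PD-1 and 32.8% of isotype classical monocytes, which is -4.25 points (-7.30 to -1.21). That share runs against the CPM, so no order was read from it. For Ccl12 in C1q macrophages the measures ran the same way, with thinned shares of 13.8% and 9.53%, a difference of 4.27 points (1.76 to 6.79).

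The make-up of the sorted cells differed as well. Classical monocytes, the cells richest in Ccr2, were 20.3% of anti-PD-1 and 17.2% of isotype cells, a difference of 3.09 points, and C1q macrophages, the cells richest in Ccl7 and Ccl12, were 13.1% and 13.8%. When every gate was given equal weight in both libraries, a step added after the values were seen, the log2 ratio over all cells was 0.15 for Ccl7 and 0.22 for Ccl12. A level over all cells mixes the share of each gate with the level inside it, and these are given apart above. Which of them lies behind a difference between the libraries was not tested, and in a sort the shares also depend on digestion.

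**Figure D5:**
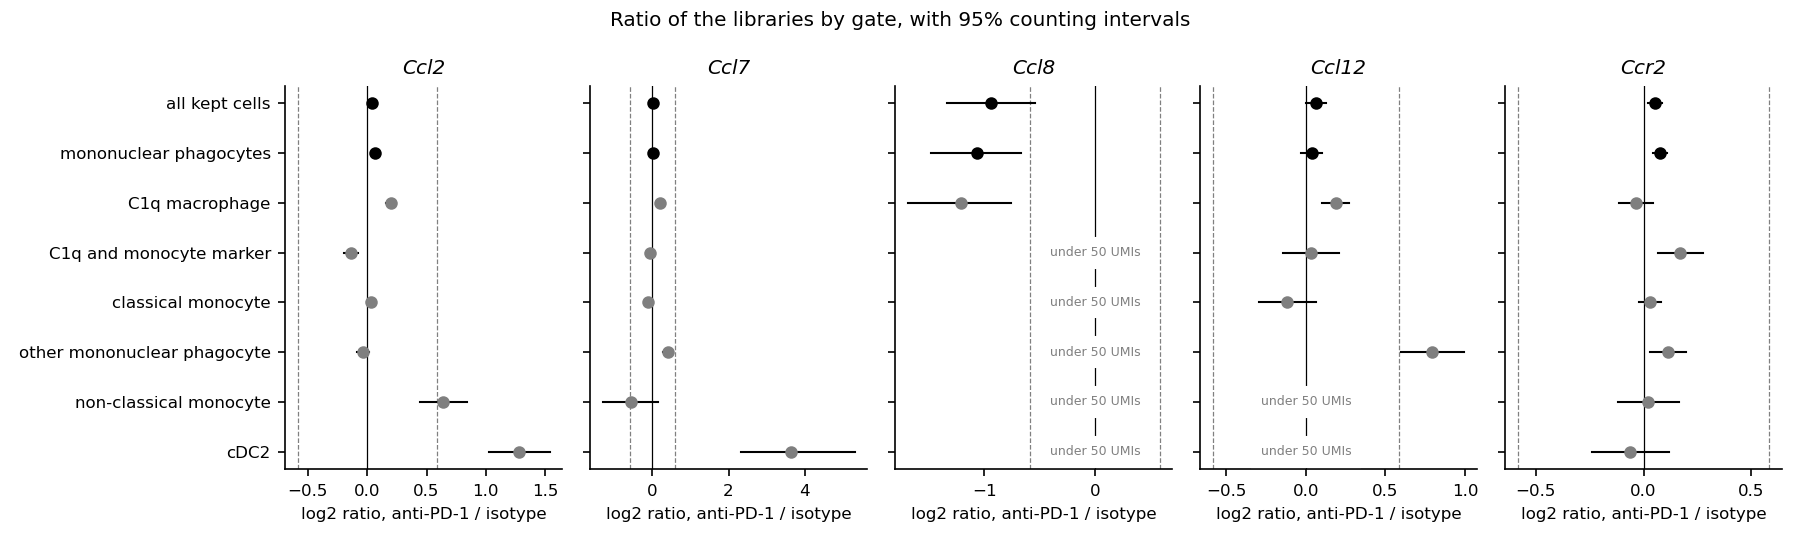
Log2 ratio of anti-PD-1 over isotype (x axis, its own range in each panel) over all kept cells, mononuclear phagocytes and 6 gates (y axis), with 95% counting intervals and dashed lines at 1.5-fold. Ccl2, Ccl7, Ccl12 and Ccr2 lie between 0.02 and 0.08 over the 2 pooled rows, while Ccl8 lies at -0.93 and -1.07.

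Outside the phagocytes, ligand UMIs were few and came in handfuls of cells. B and plasma cells, taken as background, held 26 ligand UMIs in the anti-PD-1 and 5 in the isotype library. Low ligand levels in other gates outside the phagocytes are therefore not read as expression by those cells. T and NK cells held 265 Ccl7 UMIs in 15 anti-PD-1 cells and 51 in 5 isotype cells, and 124 Ccl12 UMIs in 13 cells and 16 in 6 cells. The log2 ratios were 1.78 and 2.36, so 2 of the 4 members with at least 50 UMIs there were higher and 0 lower by over 1.5-fold, beside 6.48% of genes higher and 2.94% lower by that much in that gate. Macrophage markers were higher in the same library: the 3 C1q genes summed to 167 CPM in anti-PD-1 and 70.7 CPM in isotype T and NK cells, and all 12 mononuclear phagocyte markers, each detected, to 921 and 627 CPM. Their part in the result was not tested. In migratory DC, Ccl2 had 8 UMIs in the anti-PD-1 and 218 in the isotype library, of which 1 cell held 181. In cDC1 Ccl7 had 1 and 120 UMIs, of which 1 isotype cell held 101.

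Ccr2 in lymphocytes was spread more evenly, with 225 of 660 anti-PD-1 and 184 of 567 isotype T and NK cells holding a UMI. Among subsets formed after these values were seen, cells with Foxp3, the regulatory T cell factor, had 153 CPM in 72 anti-PD-1 and 236 CPM in 56 isotype cells. Cells with a gamma-delta receptor gene had 164 and 134 CPM, in 35 and 48 cells, and NK cells 115 and 92.7 CPM. Cells with Cd8 had 60.9 CPM in 200 anti-PD-1 and 27.9 CPM in 69 isotype cells, that is, a Ccr2 UMI in 65 and 12 cells. The Cd8 intervals (51.7 to 71.4 CPM and 17.3 to 42.7 CPM) did not overlap, and neither did the Foxp3 intervals, which ran the other way (124 to 186 CPM and 196 to 283 CPM). The intervals of the share of cells with a Ccr2 UMI did overlap in both subsets. They were 26.1% to 39.5% and 9.32% to 28.4% for Cd8, and 26.4% to 49.7% and 39.7% to 67.0% for Foxp3. Median depth in Cd8 cells was 10785.5 and 8058 UMIs. Ccl2 had 166 UMIs in 15 anti-PD-1 Cd8 cells and 1 UMI in 1 isotype Cd8 cell, and the part of phagocyte RNA was not tested.

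Of the other receptors of these ligands, Ccr1 and Ccr8 were highest outside the mononuclear phagocytes. Ccr1, a receptor of Ccl7, was highest in neutrophils, at 1129 CPM in the anti-PD-1 and 928 CPM in the isotype library. It was also present in cells with Ccr2, at 319 and 307 CPM in classical monocytes and 205 and 211 CPM in C1q macrophages. Ccr8, the receptor of mouse Ccl8, had 83.8 and 92.7 CPM in T and NK cells and 0 UMIs in C1q macrophages of both libraries. Ackr1, a decoy receptor, had 0 UMIs in both libraries. Of the neighbours in the locus, Ccl11, which lies between Ccl7 and Ccl12, had 1 and 4 UMIs. Ccl1, the chemokine of activated T cells, had 81.04 and 165 CPM in T and NK cells, a log2 ratio of -1.03.

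Genes that act around the axis were read as lists in mononuclear phagocytes. All 7 genes of receptor signalling were measured and 0 passed 1.5-fold, with a median log2 ratio of 0.11. Grk2, a kinase that switches off chemokine receptors, was at 122 CPM in the anti-PD-1 and 93.0 CPM in the isotype library (0.39, 0.33 to 0.45). Of 11 genes of monocyte trafficking and maturation 10 were measured and 0 passed, with a median of 0.17. Nr4a1, a factor of non-classical monocytes, had 501 and 419.5 CPM (0.26), and Cx3cr1, the fractalkine receptor, 19.2 and 22.0 CPM (-0.20).

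Cytokines that induce these ligands included 4 of 8 measured genes, 0 past 1.5-fold, with a median of 0.19. Tnf had 182 CPM in anti-PD-1 and 124 CPM in isotype mononuclear phagocytes (0.56, 0.51 to 0.60). In C1q macrophages it had 240 and 125 CPM (0.94), and Il6 had 116 and 75.2 CPM (0.62). Both passed 1.5-fold there, where 3.78% of all genes were higher by that much. Il1b was at 0.27 in that gate, and Csf1 ran the other way, at -0.52 (-0.75 to -0.30). The ratios of Ccl2, Ccl7 and Ccl12 there were 0.19 to 0.20, and a link to these cytokines was not tested. Of the 4 genes of ligand mRNA decay 0 passed in mononuclear phagocytes. Zfp36, which encodes tristetraprolin, an mRNA-destabilising protein, had 1383 and 1049 CPM there (0.40), and it was the 1 gene of that list past 1.5-fold in C1q macrophages (0.61).

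Of 5 genes of ligand processing 1 passed, downwards: Mmp12, the macrophage elastase that cleaves chemokines, had 194 CPM in anti-PD-1 and 299 CPM in isotype mononuclear phagocytes (-0.63, -0.67 to -0.59). Dpp4, a protease that trims chemokines, was the 1 gene of the lists past 1.5-fold in classical monocytes, at 5.52 and 3.57 CPM (0.63, 0.13 to 1.14). Qpct, whose enzyme protects the start of mature CCL2, had 51.6 and 58.8 CPM (-0.19).

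In T and NK cells 4 listed genes passed 1.5-fold upwards and 4 downwards, where 6.48% of all genes were higher and 2.94% lower by that much, against 2.02% and 1.52% in mononuclear phagocytes. Higher in the anti-PD-1 library were Grk2 (0.65), Nup85, which encodes a nucleoporin reported to bind CCR2 (0.68), Cx3cr1 (0.60, -0.07 to 1.29) and Csf1r, the receptor of the macrophage growth factor (1.06). Lower were Tnf (-0.65), Il6 (-1.05) and Il13, a type 2 cytokine (-0.88), beside Ccl1. Csf1r is itself a phagocyte gene, with 132 UMIs in anti-PD-1 and 42 in isotype T and NK cells. Over all kept cells Il4, the other type 2 cytokine of the list, had 19 and 60 UMIs (-1.75, -2.58 to -0.99).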

How the data were processed

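Single-cell RNA of CD45+ tumour cells was analysed in 1 anti-PD-1 and 1 isotype library. The authors deposited raw UMI counts per gene and barcode, not normalized. Per the file headers they come from Cell Ranger 5.0.1, and per the submitters' processing notes from Cell Ranger 2.1.1 on mm10. The labels and headers do not say how cells were called or whether strand was used in counting.

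Barcodes with at least 500 UMIs, 200 genes and at most 10% mitochondrial UMIs were kept, 10014 in the anti-PD-1 and 9566 in the isotype library. Scrublet in scanpy 1.11.5 (expected rate 0.06) marked 0 barcodes automatically, so scores above 0.25 were removed, 313 and 288 barcodes. This threshold was set after the scores were seen. Gates asked for 3 markers (T and NK, B and plasma, pDC, neutrophil, mononuclear phagocyte, cDC2, classical monocyte), 4 (migratory DC, cDC1, non-classical monocyte) or 2 of 3 C1q genes, and their numbers were set on marker genes alone.

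UMIs were summed per gate and given as CPM with exact Poisson intervals. Ratios have exact conditional binomial intervals, shares Clopper-Pearson and differences Newcombe intervals, all at 95%. For shares of cells, each cell was thinned to 1000 UMIs, which left out 40 anti-PD-1 and 75 isotype mononuclear phagocytes. The ratio interval, tested on simulated data, covered the simulated ratio in 95.1% of changed and 95.4% of unchanged genes. Those data were Poisson draws of library totals, the counting model the interval assumes, so this checks the computation only. The simulation left out the concentration of ligand UMIs in few cells, for which the intervals can be too narrow. A gene counted as measured with at least 50 UMIs over both libraries. The genes named are the 5 members, the genes of 7 lists, the 3 genes most like each member by r, and genes singled out after their values were seen. Genes of the lists that passed 1.5-fold in the gates described are named. A gene of the lists, and the summary of its list, are not reported here. Members and lists were chosen with earlier results of these data known. Mitochondrial limits, doublet removal, gate stringency, scaling (TMM from edgeR 4.0.16), thinning and top cells were varied. Python 3.11.15 and R 4.3.3 were used.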

Additional observations from a re-analysis of the deposited data

Results flagged for a closer look

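Ratios of opposite sign between gates were looked for among mononuclear phagocytes, in genes with at least 50 UMIs and an interval that left out 0. Ccl2 was higher in anti-PD-1 cDC2 (log2 ratio 1.28), with 422 UMIs against 182 in isotype cDC2, and lower in the gate with both C1q and monocyte genes (-0.14). Of the 422 UMIs, 1 cell held 134, and without the top cell of each library the cDC2 ratio was 1.29. Ccl7 was higher in anti-PD-1 cDC2 (3.63), where 59 UMIs lay in 3 cells against 5 UMIs in 2 isotype cells, and lower in classical monocytes (-0.10). A single isotype monocyte held 209 Ccl7 UMIs, and without the top cell of each library the monocyte ratio was 0.0059. The differences between gates were not tested, with 1 library per antibody.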

How the results depend on the processing

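No paired analysis was possible because each antibody has 1 library, and for the same reason no replicate could be left out. Over 10 alternatives each for all kept cells and for mononuclear phagocytes, the ratios of Ccl2, Ccl7, Ccl12 and Ccr2 stayed between -0.058 and 0.36, with 0 of 80 past 1.5-fold, and those of Ccl8 between -1.18 and -0.65, with 20 of 20 past it. Of 398 alternative values 294 stayed inside the main counting interval (for counts, within 1.5 times) and 104 did not. The causes were not tested. Depth limits Ccl8 most, with 86 and 154 UMIs in all.

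Over all kept cells, TMM scaling gave log2 ratios of -0.045 for Ccl2, -0.058 for Ccl7, -0.020 for Ccl12 and -0.028 for Ccr2, and median-of-ratios size factors gave -0.045, -0.058, -0.020 and -0.028. In mononuclear phagocytes TMM gave 0.0064 for Ccl2, -0.028 for Ccl7 and 0.019 for Ccr2, and size factors gave 0.0063, -0.028 and 0.019. In C1q macrophages both gave 0.13 for Ccl2 and 0.12 for Ccl7. For Ccl2, TMM gave -0.017 in classical monocytes and -0.11 in other mononuclear phagocytes, and size factors gave -0.018 and -0.098.

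The mean of per-cell CPM gave 0.083 for Ccl2, 0.23 for Ccl7, 0.26 for Ccl12 and 0.14 for Ccr2 over all cells, and 0.014 for Ccl2, 0.096 for Ccl7 and 0.13 for Ccl12 in mononuclear phagocytes. It gave 0.13 for Ccl2 and 0.29 for Ccl7 in C1q macrophages, and -0.093 for Ccl2, 0.14 for Ccl7, 0.50 for Ccl8 (4.27 in the report) and 0.41 for Ccl12 in other mononuclear phagocytes. Thinning gave 0.072 for Ccl2, 0.23 for Ccl7, 0.36 for Ccl12 and 0.095 for Ccr2 over all cells, and -0.00089, 0.10, 0.26 and 0.041 in mononuclear phagocytes. It gave 0.46 for Ccl12 and -0.15 for Ccr2 in C1q macrophages, -0.11 for Ccl2 and -0.30 for Ccl12 in classical monocytes, and 0.29 for Ccl7 and 0.20 for Ccl12 in other mononuclear phagocytes. With gate make-up held equal, a step chosen after seeing the data, the ratios were 0.062 for Ccl2, 0.15 for Ccl7 and 0.22 for Ccl12 over all cells, and 0.14 for Ccl7 and 0.18 for Ccl12 in mononuclear phagocytes.

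With 1 marker more per gate, the ratios were 0.041 for Ccl2 and -0.013 for Ccl7 in mononuclear phagocytes, 0.14 for Ccl2 in C1q macrophages, 0.16 for Ccl7 in classical monocytes, and 0.057 for Ccl7 and 0.32 for Ccl12 in other mononuclear phagocytes. Classical monocytes then differed by 1.72 points of all cells. Mononuclear phagocytes then held 91.5% of anti-PD-1 and 92.1% of isotype UMIs of Ccl2, 86.4% and 89.5% for Ccl7, 88.6% and 94.9% for Ccl12, 91.4% and 91.3% for Ccr2, and 97.4% of isotype Ccl8. C1q macrophages held 22.9% and 26.0% for Ccl2, 55.4% and 63.5% for Ccl12, and 17.5% and 21.7% for Ccr2.

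Without doublet removal, mononuclear phagocytes held 91.7% of anti-PD-1 and 91.1% of isotype UMIs of Ccl2, 91.4% and 91.4% for Ccl7, 91.5% and 95.5% for Ccl12, and 89.5% and 90.3% for Ccr2. C1q macrophages held 21.3% and 23.7% for Ccl2, 14.5% and 19.4% for Ccr2, and 46.7% of isotype Ccl7. Without the top cell of each library they held 74.0% of anti-PD-1 Ccl8, 49.2% of isotype Ccl7 and 58.5% of isotype Ccl12, and the Ccl7 ratio in classical monocytes was 0.0059. Unthinned, the share of mononuclear phagocytes with a UMI differed by -3.05 points for Ccl2 and 2.11 points for Ccl12, and thinned to 2000 UMIs by 2.85 points for Ccr2.

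Genes past 1.5-fold numbered 443 higher and 209 lower over all cells, and 230 and 173 in mononuclear phagocytes. With at least 10 UMIs asked of a gene they were 1000 and 765, and 678 and 601, and with at least 1 UMI 2745 and 2585, and 2275 and 2231.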
